A study of Mus musculus with 6 samples.

Results

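The genes described are 9 of the 54532 in the deposited table, named for their place in the myeloid lineage and in macrophage identity: the transcription factors Spi1, Cebpa and Cebpb, the growth factor receptors Csf1r and Csf3r, the surface proteins Adgre1 and Itgam, and the lysozymes Lyz2 and Lyz1. They were chosen by symbol, with earlier results of these data known. Their levels were compared between NSUN2-KO and NC bone marrow-derived macrophages, cells grown in culture from the marrow of mice. NSUN2 is an enzyme that methylates cytosines in RNA. Every culture had been driven to the inflammatory M1 state with LPS and IFN-γ, so both groups carry that stimulus, and resting cells were not analysed here. Each group has 3 libraries, named NC1 to NC3 and KO1 to KO3 by the replicate number in their titles. The labels give neither the meaning of NC, nor the strain and age of the mice, nor how the knockout was made and whether a Cre driver at a myeloid locus was involved. The design text calls the libraries biological replicates, in one place with a smaller number per group, and names no animals, so p-values measure the spread between these libraries.

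Macrophages arise through a small set of transcription factors. PU.1, the product of Spi1, is an ETS-family factor without which macrophages do not form, and C/EBPα, the product of Cebpa, takes progenitors into the granulocyte and monocyte lineage. C/EBPβ, from Cebpb, is the family member that responds to inflammation. These factors act on the genes of the receptors that sustain the lineage, CSF1R for macrophages and CSF3R for granulocytes, and on those of lysozyme and surface molecules.

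Lyz2, Csf3r, Cebpa and Spi1 fell in the knockout libraries, and none of the 9 genes rose. This count of 4 lower and 0 higher is at a limma adjusted p below 0.05, against 4.30% lower and 4.19% higher of all 9443 genes tested, 8.49% in all. Tested genes are those with a mean of at least 1 FPKM (fragments scaled to gene length and sequencing depth), and all 9 reached it. The knockout values lay wholly below the NC values in 5 genes, Lyz1 being the fifth, and wholly above them in Adgre1. Over all tested genes 16.7% were wholly lower and 14.4% wholly higher, 31.1% together. Csf1r, Itgam and Cebpb had overlapping groups. The median log2 fold change of the 9 genes was -0.17, against -0.01 over all genes tested. In bulk RNA, fewer cells of a type and less RNA per cell cannot be told apart.

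**Figure D1:**
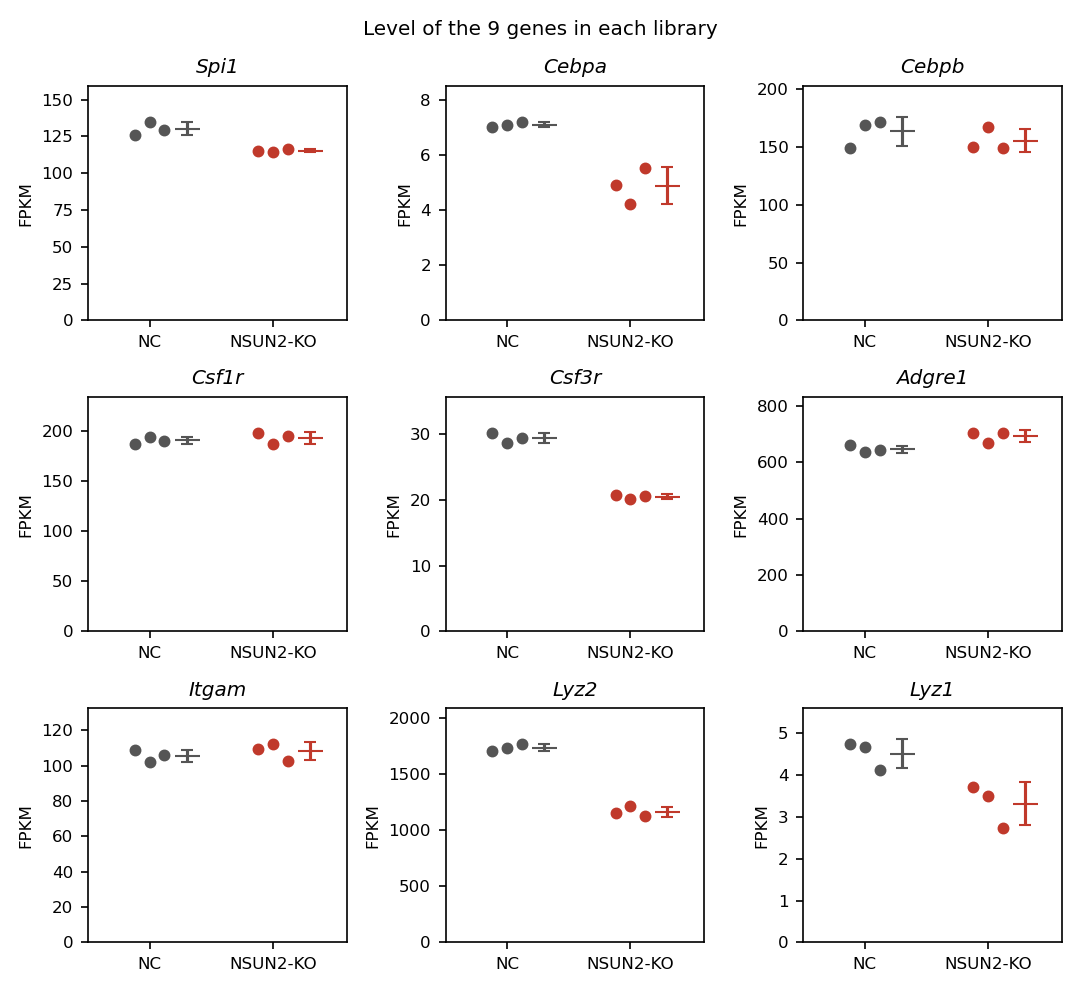
FPKM of each of the 9 genes in every library (points; vertical axes start at 0), with the mean and SD of the 3 NC and 3 NSUN2-KO libraries. The knockout points lie below all NC points for Spi1, Cebpa, Csf3r, Lyz2 and Lyz1, above them for Adgre1, and among them for Cebpb, Csf1r and Itgam.

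Some properties of the whole series touch these results. The libraries held 35019033 to 45636131 reads, recovered from the FPKM values. Nsun2 measured 1.88, 2.04 and 1.84 FPKM in NC1 to NC3 and 0.967, 1.36 and 0.863 FPKM in KO1 to KO3, so its transcript was lower but present (55.4% of NC, log2 fold change -0.51, limma adjusted p = 0.0228). With any 1 library other than KO2 left out, that adjusted p was 0.0534 to 0.0845. The Y-linked gene Ddx3y stood at 6.57 ± 0.433 FPKM in NC (SD, n = 3) and at 0 reads in every knockout library, and Xist at 14.5 ± 0.881 and 30.6 ± 1.20 FPKM. Every NC library held both RNAs, with 1242 to 1587 reads of Ddx3y and 9811 to 11534 reads of Xist. The labels do not say whether cells of several animals or of both sexes were pooled, and this was not tested. The libraries may therefore not stand for separate animals. The sex make-up of the cells and the knockout cannot be told apart in any result here. Fold changes were also lower in GC-rich genes, with a Spearman correlation of -0.374 between fold change and transcript GC content across 9433 genes, which are not independent replicates.

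The macrophage label was checked against markers. Cd68, a lysosomal macrophage protein, measured 456 ± 17.9 and 398 ± 11.5 FPKM and Fcgr1, the CD64 Fc receptor, 576 ± 9.33 and 529 ± 6.33 FPKM (NC and knockout, SD, n = 3 each). All 13 progenitor markers averaged below 1 FPKM, with a summed level of 0.459 to 0.569 FPKM in NC and 0.908 to 1.10 FPKM in the knockout. The 13 B cell markers were below it as well (sums of 0.565 to 0.953 and 1.05 to 1.35 FPKM), as were the 11 of mast cells, basophils and eosinophils (sums of 1.26 to 1.53 and 1.65 to 2.19 FPKM). Of 17 T and NK cell markers only the interleukin-7 receptor gene Il7r reached it, at 40.9 ± 2.12 and 41.6 ± 1.02 FPKM. Of 11 dendritic cell markers (sums of 6.76 to 8.06 and 10.5 to 11.6 FPKM) 2 were tested, and Ccr7, which guides cells to lymph nodes, was called higher (from 2.98 ± 0.649 to 5.24 ± 0.319 FPKM, adjusted p = 0.0144, lost without KO1). The other, the chemokine receptor gene Xcr1, measured 2.41 ± 0.193 and 3.21 ± 0.434 FPKM (adjusted p = 0.0768). Of 10 erythroid and megakaryocyte markers 2 were tested, Pf4 (117 ± 4.79 and 111 ± 3.93 FPKM) and Ppbp (7.60 ± 1.01 and 7.68 ± 1.2549 FPKM), with 0 called. Of 14 stromal and endothelial markers 4 were tested, Kdr (5.72 ± 0.367 and 6.01 ± 0.394 FPKM), Vwf (1.23 ± 0.0994 and 1.32 ± 0.144 FPKM), Acta2 (1.09 ± 0.0658 and 1.17 ± 0.123 FPKM) and Pecam1 (2.47 ± 0.209 and 2.48 ± 0.1201 FPKM), also with 0 called.

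Lyz2 encodes lysozyme M, with which macrophages and neutrophils cut bacterial cell walls, and Lyz1 the form known from Paneth cells of the gut. The paralogs are neighbours on chromosome 10 of GRCm38, both on the minus strand, Lyz2 (ENSMUSG00000069516) from 117277331 to 117282321 and Lyz1 (ENSMUSG00000069515) from 117287797 to 117292868. Their coding sequences differ at 22 of 444 bases. Their upstream sequences are printed because they are related while the levels of the genes are far apart. Each stretch is 201 bases of RefSeq's promoter window (GRCm38.p6, minus strand, chr10:117282322-117282522 for Lyz2 and chr10:117292918-117293118 for Lyz1), and they aligned with 151 of 203 columns identical. Capitals mark matches on either strand to AGGAAG, an ETS-type core that PU.1 binds, or to TTGCNNAA, a C/EBP motif.
Lyz2: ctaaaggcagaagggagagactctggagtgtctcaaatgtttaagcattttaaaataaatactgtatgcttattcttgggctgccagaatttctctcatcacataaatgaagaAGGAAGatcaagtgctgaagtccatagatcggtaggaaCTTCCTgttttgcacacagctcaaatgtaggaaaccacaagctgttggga
Lyz1: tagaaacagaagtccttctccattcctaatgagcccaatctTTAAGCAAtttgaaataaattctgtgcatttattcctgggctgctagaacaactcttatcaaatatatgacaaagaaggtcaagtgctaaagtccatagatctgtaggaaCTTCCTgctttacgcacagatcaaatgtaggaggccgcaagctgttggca
Lyz2 holds AGGAAG once in each orientation, and Lyz1 holds it once, reversed, with 1 C/EBP match. In the 250 bases before the start, 29.5% of all 32851 RefSeq promoters held AGGAAG and 9.56% held TTGCNNAA.

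Lyz2 was the most abundant of the 9 genes. It measured 1708, 1729.7 and 1769 FPKM in NC1 to NC3 and 1150.0, 1215 and 1124 FPKM in KO1 to KO3. Every knockout library lay far below every NC library. The means were 1736 ± 31.2 and 1163 ± 47.1 FPKM (SD, n = 3 each), so the knockout held 67.0% of the NC level. On the log2(FPKM + 1) scale Lyz2 fell by 0.58 (SE 0.04, limma adjusted p = 0.000282), and 31 of the 9443 fold changes were more negative. The call held in all 18 alternative analyses, with log2 fold changes from -0.61 to -0.55. The labels do not say whether a Cre driver was placed at a myeloid locus such as Lyz2. An effect of such an allele on the Lyz2 transcript was not tested.

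Lyz1 was the least abundant. It measured 4.75, 4.67 and 4.13 FPKM in NC1 to NC3 and 3.72, 3.50 and 2.74 FPKM in KO1 to KO3, from 130 to 270 reads per library. The groups did not overlap, but KO1 came within 1 FPKM of NC3. Means were 4.52 ± 0.340 and 3.32 ± 0.515 FPKM (SD, n = 3 each), and the log2 fold change of -0.36 (SE 0.10) did not pass the threshold (limma adjusted p = 0.0593, from 0.0244 to 0.205 over its alternatives). Of 17 alternatives 3 called it. The other 8 genes on the lysozyme family list were below 1 FPKM, 6 of them at 0 reads throughout. Its fold change was -0.19 with a pseudocount of 5 FPKM, since that scale shrinks low genes.

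Relative to Lyz2 within the same library, Lyz1 stood at 0.278%, 0.270% and 0.233% in NC and at 0.324%, 0.288% and 0.244% in the knockout. These ratios overlapped (exact two-sided permutation p = 0.4, n = 3 each), so no difference in the ratio was detectable with 3 libraries a group. Shared sequence bears on the low Lyz1 values. Of all 50-base windows of the Lyz1 transcript 16.1% occur exactly in Lyz2, of 100-base windows 2.06%, and of 150-base windows 0 of 1114. No source used here gives the read length or how reads with several matches were counted, so the part of Lyz2 reads in Lyz1 was not tested.

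The growth factor receptors went separate ways: Csf3r fell and Csf1r did not pass the test. CSF1R is the tyrosine kinase receptor of CSF1 (M-CSF), which grows and maintains macrophages, and CSF3R is the receptor of CSF3 (G-CSF), which drives granulocytes. Csf1r (ENSMUSG00000024621, chromosome 18, 61105572 to 61132149, plus strand) measured 187, 194 and 190.1 FPKM in NC1 to NC3 and 198, 187 and 195 FPKM in KO1 to KO3. KO2 lay below all NC libraries and the other two above, so the groups overlapped. The log2 fold change was 0.02, with a 95% interval of -0.06 to 0.10 (limma adjusted p = 0.752, from 0.0873 to 0.987 over its alternatives). Csf1r had 32001 to 43457 reads per library. Its last exon bases overlap Hmgxb3 on the opposite strand, over 15.1% of the exon bases of Csf1r in GENCODE vM21, and Hmgxb3 averaged 4.46 and 4.44 FPKM.

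Csf3r (ENSMUSG00000028859, chromosome 4, 126024550 to 126044440, plus strand) measured 30.2, 28.6 and 29.4 FPKM in NC1 to NC3 and 20.7, 20.1 and 20.6 FPKM in KO1 to KO3. The groups were far apart and each was tight. Means were 29.4 ± 0.798 and 20.5 ± 0.324 FPKM (SD, n = 3 each), so the knockout held 69.7% of NC. Csf3r fell by 0.50 on the log2(FPKM + 1) scale (SE 0.04, limma adjusted p = 0.000477), and the call held in all 18 alternatives. Relative to Csf1r in the same library it stood at 16.1%, 14.7% and 15.4% in NC and at 10.4%, 10.8% and 10.6% in the knockout. The ratio was lower in all 3 knockout libraries, by 0.54 on the log2 scale. The exact two-sided permutation p was 0.1, the smallest that 3 against 3 allow, and 0.15 after Benjamini-Hochberg adjustment over the 3 ratios compared. Scaling between libraries cancels in such a ratio.

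Csf3r is best known from neutrophils, so their markers are given beside it. Of 22 listed, 12 were tested, 3 rose and 2 fell, with a median log2 fold change of 0.01. Over all genes tested, 4.19% rose and 4.30% fell. Mmp8, a granule collagenase, fell from 25.8 ± 1.04 to 20.6 ± 1.16 FPKM and S100a9, a calcium-binding alarmin, fell from 28.9 ± 2.33 to 22.4 ± 2.28 FPKM (SD, n = 3 each). Lcn2, which binds bacterial siderophores, rose from 77.2 ± 4.22 to 92.2 ± 4.05 FPKM, and the formyl peptide receptor gene Fpr1 from 131 ± 3.24 to 155 ± 9.45 FPKM. The related Fpr2 rose from 127 ± 1.29 to 145 ± 8.19 FPKM. Of these 5 calls only that of Mmp8 held without each library in turn: S100a9 lost its call when any 1 library other than KO2 was left out, Lcn2 without NC3, KO1 or KO2, and Fpr1 and Fpr2 when any 1 library other than KO3 was left out. With low genes kept the list gave 0 higher and 0 lower, and with no variance trend 0 higher and 1 lower. Markers that are most particular to neutrophils were near 0 in both groups. Ly6g averaged 0.148 ± 0.0622 and 0.0553 ± 0.0566 FPKM from at most 8 reads a library, the chemokine receptor gene Cxcr2 0.280 ± 0.0277 and 0.217 ± 0.0994 FPKM, and Retnlg had 0 reads throughout. The summed level of the list was 420.4 to 434 FPKM in NC and 443 to 483 FPKM in the knockout. The part of neutrophil RNA in the Csf3r result was not tested.

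Upstream sequences of Csf3r and Itgam are shown together because both hold AGGAAG while only Csf3r was called. They stop before the first annotated start (RefSeq, GRCm38.p6, plus strand, chr4:126024409-126024549 for Csf3r and chr7:128062390-128062639 for Itgam), with capitals as for the lysozymes.
Csf3r: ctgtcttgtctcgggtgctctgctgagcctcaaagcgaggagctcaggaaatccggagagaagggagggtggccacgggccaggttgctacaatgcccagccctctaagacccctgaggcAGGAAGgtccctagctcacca
Itgam: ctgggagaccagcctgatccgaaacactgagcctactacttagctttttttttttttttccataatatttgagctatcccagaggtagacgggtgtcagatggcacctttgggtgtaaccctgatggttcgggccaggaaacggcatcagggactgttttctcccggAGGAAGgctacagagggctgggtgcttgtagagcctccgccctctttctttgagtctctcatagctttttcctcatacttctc
RefSeq windows matched 6 of the 9 genes. In the 250 bases searched, AGGAAG was found in 4 of the 6, Lyz2, Lyz1, Csf3r and Itgam, and TTGCNNAA in 1, Lyz1. The windows of Cebpa and Cebpb held neither. Csf3r held 4 AGGAAG matches in those bases and Itgam 1. The printed stretches show 1 each, and the others of Csf3r lie past its first annotated start.

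The genes of both ligands, which were expressed at low levels, rose. Csf3 measured 1.96, 2.41 and 1.5003 FPKM in NC1 to NC3 and 4.07, 3.47 and 2.94 FPKM in KO1 to KO3, without overlap (log2 fold change 0.61, limma adjusted p = 0.0298). Csf1 rose from 6.15 ± 0.103 to 7.16 ± 0.258 FPKM (log2 fold change 0.19, adjusted p = 0.0448). Csf1 lost its call when any 1 library was left out, and Csf3 without NC1, NC3, KO1 or KO2. Il34, the other CSF1R ligand, had 0 reads throughout. Of 13 ligands and receptors of this class other than Csf1r and Csf3r, 7 were tested. Of these 2 rose and 0 fell, against 4.19% and 4.30% of all genes tested. The 7 had a median log2 fold change of -0.10. The counts were 3 higher and 2 lower with limma voom on recovered reads, 2 higher and 2 lower with protein-coding genes alone and 1 higher and 2 lower with a minimum mean of 5 FPKM. Csf2ra, which encodes the GM-CSF receptor alpha chain, measured 68.3 ± 5.27 and 58.7 ± 0.777 FPKM (adjusted p = 0.0509) and Csf2rb2, a beta chain, 119 ± 2.98 and 109 ± 3.80 FPKM (adjusted p = 0.0672).

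Of 35 tested genes whose proteins signal from or regulate CSF1R or CSF3R, 2 rose and 0 fell, with a median log2 fold change of -0.05. Over all genes tested 4.19% rose and 4.30% fell, so these counts stand near the general share. Jak2, a kinase coupled to CSF3R, rose from 60.9 ± 1.40 to 70.6 ± 1.87 FPKM, and Adam17, a protease that sheds CSF1R, rose from 40.9 ± 0.908 to 46.5 ± 1.07 FPKM. Jak2 lost its call without NC3 or KO1, and Adam17 without NC2, NC3, KO1 or KO3. The balance of this list depended on the analysis. It was 2 higher and 6 lower with limma voom on recovered reads, where 706 of all genes rose and 666 fell. With protein-coding genes alone it was 2 higher and 4 lower, where 480 of all genes rose and 541 fell. It was 2 higher and 3 lower with a minimum mean of 5 FPKM, where 413 of all genes rose and 450 fell. In the main fit 396 of all genes rose and 406 fell. Socs3, an inhibitor of cytokine receptors, measured 189 ± 5.15 and 173 ± 3.70 FPKM (adjusted p = 0.0516), and the Src-family kinase gene Fgr 2.82 ± 0.0653 and 2.06 ± 0.354 FPKM (adjusted p = 0.0626).

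**Figure D2:**
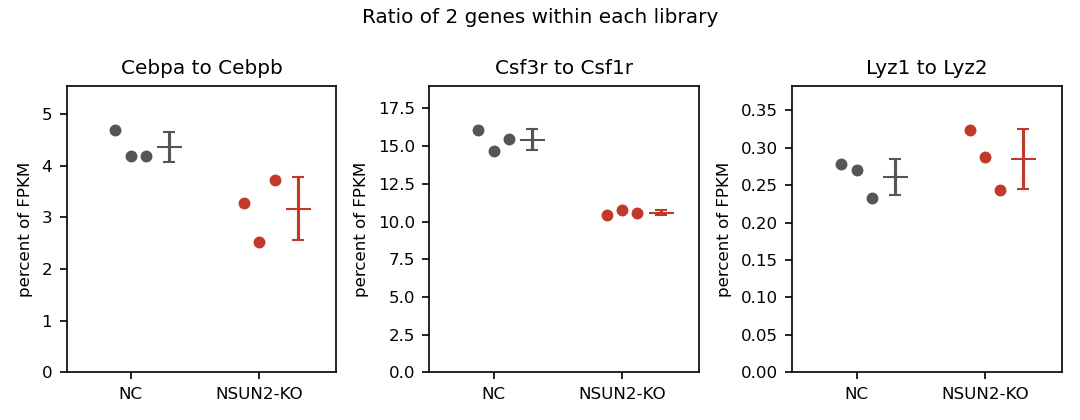
FPKM of one gene as a percent of another within each library (points), with the mean and SD of 3 libraries per group; axes start at 0. Csf3r to Csf1r and Cebpa to Cebpb are lower in all 3 knockout libraries, and Lyz1 to Lyz2 overlaps.

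Among the lineage transcription factors Spi1 and Cebpa fell and Cebpb did not pass the test. Spi1 (ENSMUSG00000002111, chromosome 2, 91082390 to 91115756, plus strand) measured 126, 135 and 129 FPKM in NC1 to NC3 and 115, 114 and 116 FPKM in KO1 to KO3. All knockout values were below all NC values, and they were closer to each other than the NC values were. The means were 130.1 ± 4.47 and 115 ± 1.12 FPKM (SD, n = 3 each), so the knockout held 88.6% of NC. Spi1 fell by 0.17 on the log2(FPKM + 1) scale (SE 0.03, limma adjusted p = 0.0215). The adjusted p was 0.0583 without NC2, 0.0772 without NC3, 0.0820 without KO1 and 0.0595 without KO2. With the trend over GC content and length taken out the log2 fold change was -0.090 (adjusted p = 0.0339).

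Cebpa (ENSMUSG00000034957, chromosome 7, 35119293 to 35121928, plus strand) was far scarcer than Spi1 and Cebpb. It measured 7.02, 7.08 and 7.21 FPKM in NC1 to NC3 and 4.93, 4.22 and 5.53 FPKM in KO1 to KO3, from 390 to 855 reads per library. The NC values were nearly equal, and the knockout values were spread out below them. Means were 7.10 ± 0.0972 and 4.89 ± 0.659 FPKM (SD, n = 3 each), so the knockout held 68.9% of NC. Cebpa fell by 0.47 on the log2(FPKM + 1) scale (SE 0.08, limma adjusted p = 0.0139). The adjusted p was 0.0526 without NC2, 0.0540 without NC3 and 0.0514 without KO1, and a pseudocount of 5 FPKM took the fold change to -0.29 (adjusted p = 0.0120).

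Cebpb (ENSMUSG00000056501, chromosome 2, 167688915 to 167690418, plus strand) measured 149, 169 and 172 FPKM in NC1 to NC3 and 150.3, 167 and 149 FPKM in KO1 to KO3. Each group held lower and higher libraries, and the groups overlapped. The log2 fold change was -0.07, with a 95% interval of -0.22 to 0.08 (limma adjusted p = 0.542, from 0.185 to 0.837 over its alternatives). It turned to 0.031 with the trend over GC content and length taken out. Cebpb shares 20.7% of its exon bases with Tmem189 on the opposite strand, which averaged 40.2 and 42.8 FPKM. Whether the counting used strand is not given in any source at hand, so reads of that stretch cannot be assigned with certainty. Transcript GC content was 58.9% for Spi1, 62.6% for Cebpa and 67.2% for Cebpb, against a median of 49.2% over tested genes.

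Within libraries, Cebpa was lower relative to Cebpb in the knockout. It stood at 4.70%, 4.18% and 4.20% of Cebpb in NC and at 3.28%, 2.52% and 3.72% in the knockout. The ratio was lower in all 3 knockout libraries, by 0.48 on the log2 scale (exact two-sided permutation p = 0.1, the smallest possible, or 0.15 adjusted over the 3 ratios). A list of 8 genes drawn up for this family also holds Cebpz and Cebpzos, which share its name but are not C/EBP leucine zipper factors. Of the list 7 genes were tested and 1, Cebpa, was called, against 8.49% of all genes tested. Cebpe, a granulocyte factor, measured 1.46 ± 0.110 and 1.59 ± 0.127 FPKM, and Cebpzos 1.02 ± 0.328 and 1.20 ± 0.0523 FPKM. Cebpd was below the level for testing, at 0.724 ± 0.0391 and 0.561 ± 0.122 FPKM.

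**Figure D3:**
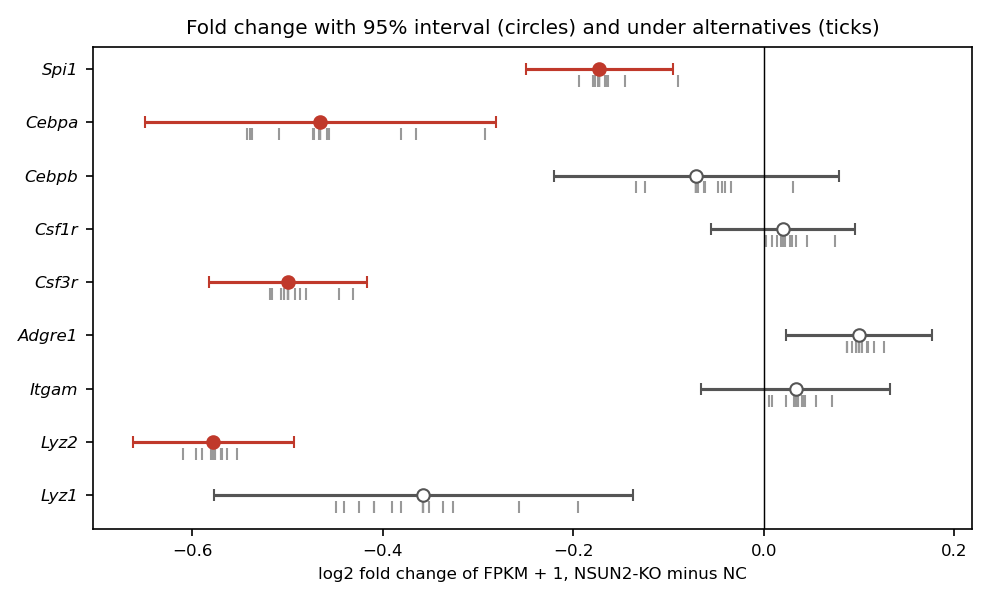
Log2 fold change of FPKM + 1 (NSUN2-KO minus NC; horizontal axis) for each of the 9 genes, with its 95% interval; filled circles passed an adjusted p of 0.05 and grey ticks give the alternative analyses. Lyz2 and Csf3r lie at -0.58 and -0.50, with all their ticks below 0, and Csf1r and Itgam lie at 0.02 and 0.03.

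Other transcription factors of myeloid cells moved both ways. Of 34 tested, 4 rose and 2 fell, and the median log2 fold change was -0.0046. Over all genes tested, 4.19% rose and 4.30% fell. Id2, an inhibitor of helix-loop-helix factors, rose from 33.0 ± 0.328 to 45.2 ± 4.16 FPKM (log2 fold change 0.44, limma adjusted p = 0.00696). The repressor gene Bhlhe40 rose from 3.46 ± 0.348 to 4.77 ± 0.0978 FPKM, the zinc finger gene Ikzf1 from 10.4 ± 0.125 to 12.03 ± 0.378 FPKM, and the immediate early gene Egr1 from 0.876 ± 0.0968 to 1.49 ± 0.204 FPKM. The nuclear receptor gene Rxra fell from 9.97 ± 0.658 to 8.21 ± 0.162 FPKM. Of these 5 calls, that of Id2 was the only one to hold without each library in turn: the number of higher factors was 1 without NC2, 2 without NC1, NC3, KO1 or KO3, and the number of lower ones 0 without NC2, NC3 or KO1, 1 without KO2. The counts were 0 higher and 0 lower when low genes were kept, 8 higher and 4 lower with voom, 2 higher and 4 lower with a minimum mean of 5 FPKM, 4 higher and 4 lower with protein-coding genes alone and 3 higher and 0 lower on TPM.

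Transcripts of the surface markers of mouse macrophages, Adgre1 and Itgam, were called in neither direction. Adgre1 encodes F4/80, an adhesion receptor of the EGF-TM7 family, and Itgam encodes CD11b, the alpha chain of the Mac-1 integrin. Adgre1 (ENSMUSG00000004730, chromosome 17, 57358691 to 57483527, plus strand) measured 659, 634 and 642 FPKM in NC1 to NC3 and 704, 667 and 704 FPKM in KO1 to KO3. All knockout values were above all NC values, though KO2 was close to NC1. Means were 645 ± 12.9 and 692 ± 21.2 FPKM (SD, n = 3 each), and the log2 fold change was 0.10, with a 95% interval of 0.02 to 0.18. It did not pass after adjustment (limma adjusted p = 0.108, from 0.0326 to 0.321 over its alternatives), and limma voom on recovered reads was the only alternative that called it. Adgre5, a gene of the same family that encodes CD97, fell from 14.4 ± 0.882 to 11.2 ± 0.366 FPKM (adjusted p = 0.0103).

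Itgam (ENSMUSG00000030786, chromosome 7, 128062640 to 128118491, plus strand) measured 109, 102 and 106 FPKM in NC1 to NC3 and 109.7, 112 and 102 FPKM in KO1 to KO3. The groups overlapped. The log2 fold change was 0.03, with a 95% interval of -0.07 to 0.13 (limma adjusted p = 0.681, from 0.300 to 0.962 over its alternatives). A predicted gene on the same strand, Gm49368, shares 68.7% of Itgam's exon bases and averaged 0.0505 and 0.0239 FPKM, so Itgam's level depends on how shared reads were counted. Itgb2, the beta chain that pairs with CD11b, fell from 430.0 ± 10.8 to 383 ± 4.07 FPKM (log2 fold change -0.17, adjusted p = 0.0156), a call lost without NC2, NC3 or KO1.

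In both groups the order of levels was Lyz2, Adgre1, Csf1r, Cebpb, Spi1, Itgam, Csf3r, Cebpa and Lyz1, and neighbouring genes had no overlapping values within a group. The closest neighbours were Spi1 and Itgam in the knockout, where the lowest Spi1 value was 114 FPKM and the highest Itgam value 112 FPKM. The places of Itgam and Cebpb in this order depend on how reads of their shared exon bases were counted. Mean Lyz2 was 2.69 times mean Adgre1 in NC and 1.68 times in the knockout.

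Of 35 tested markers of mature macrophages, a list without any of the 9 genes, 16 fell and 3 rose, and the median log2 fold change was -0.16. Over all genes tested, 4.30% fell and 4.19% rose. Tcn2, the vitamin B12 carrier transcobalamin, fell from 25.9 ± 0.863 to 19.5 ± 0.654 FPKM, the tetraspanin gene Cd63 from 34.2 ± 1.20 to 26.9 ± 0.916 FPKM and the mannose receptor gene Mrc1 from 3.44 ± 0.166 to 1.94 ± 0.235 FPKM. Higher were Cd14, which hands LPS to its receptor, from 206 ± 3.32 to 251 ± 1.87 FPKM, the scavenger receptor gene Marco from 558 ± 2.25 to 651 ± 20.5 FPKM and the RNA sensor gene Tlr7 from 35.1 ± 1.14 to 39.9 ± 1.84 FPKM. The number of lower markers was 8 without NC3 or KO1, 10 without NC2, and Tlr7 lost its call when any 1 library other than KO3 was left out. Lower markers numbered 7 when low genes were kept and 10 with no variance trend. They numbered 20 with a minimum mean of 5 FPKM or with protein-coding genes alone, and 21 with voom. Lower calls over all genes also varied, from 406 in the main fit to 118 with low genes kept and 666 with voom.

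Known targets of PU.1 or C/EBP factors, also without the 9 genes, gave 6 lower and 2 higher of 29 tested. Beside this stood 4.30% lower and 4.19% higher over all genes tested, and the targets had a median log2 fold change of -0.06. The lower genes were Laptm5, a lysosomal membrane protein (from 248 ± 10.7 to 205 ± 5.68 FPKM), Fcgr3, an Fc receptor (from 744 ± 17.7 to 622 ± 29.6 FPKM), Cyba, a subunit of the phagocyte oxidase (from 391 ± 14.7 to 347 ± 11.6 FPKM), Itgb2, Cd68 and Fcgr1. Cybb, the catalytic subunit of the same oxidase, rose from 402 ± 14.3 to 452 ± 9.49 FPKM, and Cd14 was the other gene that rose. The number of lower targets was 2 without NC2, NC3 or KO1, and the number of higher ones 1 without NC2, NC3, KO1 or KO3. Lower targets numbered 1 when low genes were kept and 2 with no variance trend. They numbered 10 with a minimum mean of 5 FPKM or with trends over GC content and length removed. With voom or protein-coding genes alone they numbered 11. Lower calls over all genes moved too: 406 in the main fit, 118 with low genes kept and 254 with no variance trend. They were 450 with a minimum mean of 5 FPKM, 386 with those trends removed, 666 with voom and 541 with protein-coding genes alone. Without NC2, NC3 or KO1 they were 145, 124 and 123. Itgb2, Cd68, Fcgr1 and Cd14 are on the mature macrophage list too, so the lists are not independent.

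Monocyte markers gave 1 higher and 0 lower of 10 tested, against 4.19% and 4.30% of all genes tested. The median log2 fold change of these markers was 0.10. The gene was Ly6c2, which encodes the Ly6C antigen of inflammatory monocytes and rose from 14.2 ± 1.01 to 21.8 ± 1.82 FPKM (log2 fold change 0.59, limma adjusted p = 0.00312), also without each library in turn. The counts were 3 higher and 0 lower without NC1, 3 higher and 1 lower with voom, and 1 higher and 1 lower with trends over GC content and length removed. Ccr2, the receptor with which monocytes leave the marrow, measured 8.89 ± 0.784 and 7.47 ± 0.468 FPKM (adjusted p = 0.0943), and Ms4a4c 411 ± 10.9 and 442 ± 17.6 FPKM (adjusted p = 0.138).

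**Figure D4:**
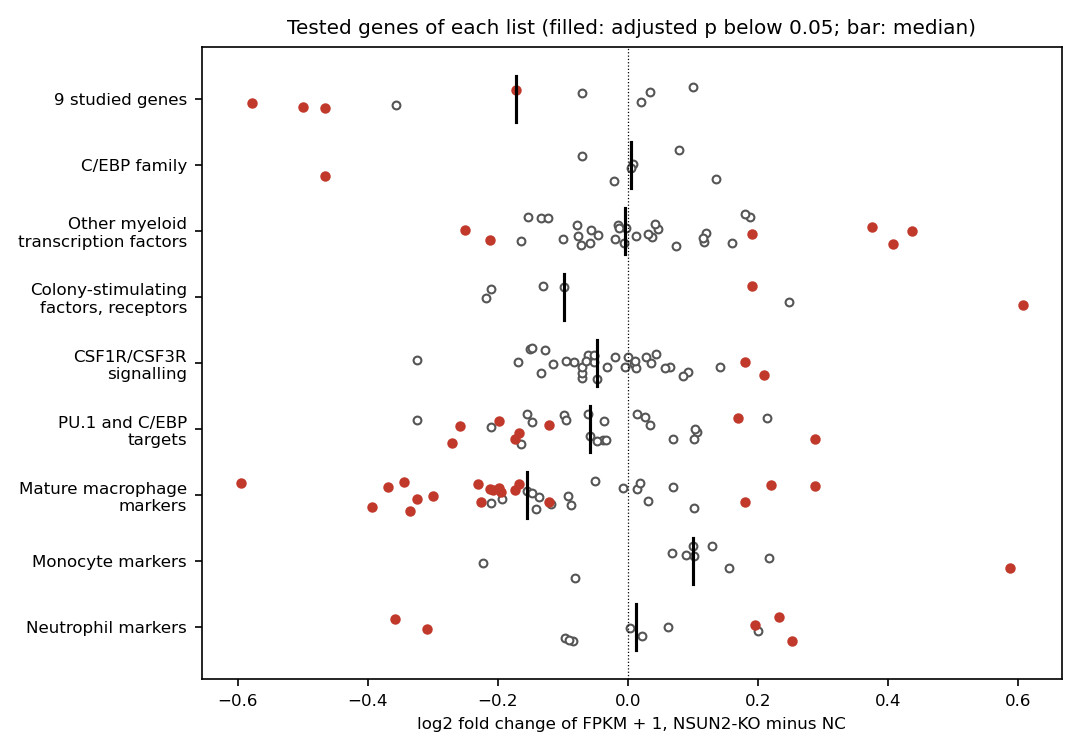
Log2 fold change of FPKM + 1 (NSUN2-KO minus NC; horizontal axis) of every tested gene of each list; filled points passed an adjusted p of 0.05 and black bars are medians. The median is -0.17 for the 9 genes, -0.16 for mature macrophage markers, -0.06 for PU.1 and C/EBP targets and 0.01 for neutrophil markers.

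For each of the 4 genes that fell, the 3 protein-coding genes with the most similar profile were found by Pearson's r of log2(FPKM + 1) over the 6 libraries. The gap between the groups dominates such an r, so it is a description only. For Lyz2 they were Pltp (r = 0.9995), Tgfbi (0.9986) and Mmp19 (0.9976). Pltp, which encodes phospholipid transfer protein, fell from 16.5 ± 0.613 to 8.31 ± 0.580 FPKM, and the matrix protein gene Tgfbi from 87.5 ± 1.46 to 56.3 ± 3.33 FPKM. For Spi1 they were Slc11a1 (r = 0.9988), Fkbp15 (0.9971) and Tmem173 (0.9968), of which Slc11a1, the phagosomal metal transporter NRAMP1, fell from 237 ± 9.32 to 210.2 ± 2.06 FPKM and Tmem173, which encodes STING, from 26.2 ± 1.43 to 21.5 ± 0.614 FPKM. Slc11a1 lost its call without NC2, NC3, KO1 or KO2, and Tmem173 without NC3 or KO1. For Cebpa they were Zfp217 (0.9948), Srgap2 (0.9946) and Cdc42se1 (0.9934), with 0 of the 3 called. For Csf3r they were the Y-linked Eif2s3y (r = 0.9955) and Ddx3y (0.9953), with 0 reads in the knockout, and the inhibitory receptor gene Pirb (0.9946), which fell from 274 ± 2.15 to 232 ± 3.37 FPKM.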

How the data were processed

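RNA-seq was done on 6 libraries of M1-polarized macrophages, 3 NSUN2-KO and 3 NC, grouped by their titles. The values are FPKM as deposited by the authors, beside each gene's length. The submitters' processing notes name CASAVA 1.8, fastp and HISAT2 2.0.5, also featureCounts 1.5.0-p3, DESeq2 1.20.0 and build GRCm38; no source used here gives their settings. Each FPKM times gene length was a whole multiple of the value of 1 read (100% of values, tolerance 0.01 reads), which gave the read numbers. Precision from read numbers covers counting error only, since reads are not known to carry molecular identifiers.

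The main test was limma 3.58.1 under R 4.3.3, applied to log2(FPKM + 1) of genes averaging 1 FPKM or more, with an intensity trend in the variance and Benjamini-Hochberg adjustment over all of them. This scale understates changes of low genes. The code was tested on simulated data. Ratios were compared by exact permutation. The 18 alternatives were a pseudocount of 0.1 or 5 FPKM, no filter or a mean of 5 FPKM, no variance trend, TPM, median-ratio scaling, voom on recovered reads, a replicate block, protein-coding genes alone, no X or Y genes, loess removal (span 0.5) of trends with GC and length, and leaving out each library. The 9 genes, the gene lists and the tests were chosen with earlier results of these data known. Genes named were the 9, Nsun2, up to 4 per list by smallest p, all of a list with 5 or fewer tested, the 3 most correlated with each changed gene, Xist and Ddx3y. Ikzf1, Egr1, S100a9, Tlr7, Cyba, Cybb, Cd68, Fcgr1, Ly6g, Cxcr2, Retnlg, Il34, Cebpd and the overlapping genes were added after their values were seen. For 1 listed symbol with a second row, Ddit3, the row with the higher mean was used. The other lower gene among the myeloid transcription factors and 1 monocyte marker are not reported here. Promoters come from RefSeq (GRCm38.p6), and those of the lysozymes were aligned globally with Biopython 1.88 (match 1, mismatch -1, gap opening -3, extension -1).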

Additional observations from a re-analysis of the deposited data

How the results depend on the processing

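Lyz2 and Csf3r kept their calls in all 18 alternatives, Cebpa in 14 and Spi1 in 11, while Csf1r, Itgam and Cebpb had 0 calls. With low genes kept the limma adjusted p was 0.0772 for Cebpa and 0.0713 for Spi1, and with no variance trend it was 0.0671 for Spi1. Of the 9 genes 4 were called lower, against 2 when low genes were kept and 2 to 4 when 1 library was left out (2 without NC2, NC3 or KO1). The count was 3 with no variance trend. It was 5, with Lyz1 added, with protein-coding genes alone and with trends over GC content and length removed. Limma voom on recovered reads called 1 of the 9 genes higher, Adgre1. Over all genes 802 changed, against 265 when low genes were kept, 526 with no variance trend and 1372 with voom. The number was 1021 with protein-coding genes alone and 863 with a minimum mean of 5 FPKM. It was 825 with trends over GC content and length removed and 586 on TPM. When 1 library was left out it was 276 to 596 (276 without KO1, 287 without NC3, 333 without NC2, 457 without KO2). List counts under an alternative belong beside these numbers, as the shares given beside the lists are of the main fit. The log2 fold change of Nsun2 was -0.51 when low genes were kept (limma adjusted p = 0.113) and -0.61 to -0.44 when 1 library was left out. Pairing by replicate number was not detectable, as deviations of same-numbered libraries from their group means correlated at -0.0095, -0.03 and 0.0034. These values cannot show whether such libraries were prepared together. With the replicate block 351 genes changed and 4 of the 9 were called lower, Lyz1 (limma adjusted p = 0.0448) and not Spi1 (adjusted p = 0.0749) among them, and the 3 ratios each had an exact p of 0.25, the smallest that 3 pairs allow. Signs turned only for genes not called. With trends over GC content and length removed, the log2 fold change was 0.031 for Cebpb, -0.034 for Il7r and -0.049 for Ppbp, and when 1 library was left out it ranged over -0.00051 to 0.065 for Il7r, -0.070 to 0.136 for Ppbp and -0.042 to 0.038 for Pecam1. A minimum mean of 5 FPKM gave no value for Nsun2 and Lyz1, which lie below it. The causes of these changes were not tested.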
